A study of Homo sapiens with 5 samples.

Results

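The genes described here encode the nuclear part of complexes III and IV of the respiratory chain and of ATP synthase, with cytochrome c and a set of assembly factors. The members were listed by name, 49 in all: 12 for complex III (9 subunits, cytochrome c and 2 assembly factors), 19 for complex IV (10 subunits, the supercomplex factor COX7A2L and 8 assembly factors) and 18 for ATP synthase (15 subunits, an inhibitor and 2 assembly factors). All 49 were among the 16677 genes of the deposited count table, and all 49 passed the filter on low counts. RNA of HEK293, a widely used line derived from human embryonic kidney and kept here under basal culture, was sequenced in 5 libraries. Of these, 2 libraries were labelled Control with genotype WT and 3 were labelled rs11607019, a T-to-C change that the series places in SIRT3, the gene of a mitochondrial deacetylase. They are called wild-type 1 and 2 and variant 1, 2 and 3 below. How the base was changed, and whether libraries of a group came from separate clones or cultures, is not given in the sources used here, so the p-values measure the spread between these libraries, which may be technical.

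Complex III passes electrons from ubiquinol to cytochrome c, and complex IV passes them from cytochrome c to oxygen; both pump protons out of the mitochondrial matrix. ATP synthase lets the protons back in through its membrane part, Fo, and uses the rotation to make ATP in its catalytic head, F1. Most subunits are made from nuclear genes and imported, while a few core subunits are made inside the organelle from mitochondrial DNA. Each complex thus depends on both genomes and on dedicated assembly factors. In complex IV some of these factors supply heme a and copper.

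Library totals lay between 17122569 and 17596084 counts. SIRT3, the gene that carries the variant, stood at 28.9 and 29.3 CPM (read counts scaled for library depth and composition) in wild type and at 26.5, 15.8 and 30.2 CPM in the variant libraries, with −0.27 (SE 0.26) as log2 fold change and 0.815 as edgeR's adjusted p. Its level does not check the labels, since the variant is a base change that a count table does not show. Of 7 genes listed as markers of HEK293, 4 were tested (VIM, KRT8, KRT18 and PAX2). Their summed levels were 621 to 887 CPM in wild type and 735 to 1105 CPM in the variant. NEFL, NEFM and INA had no row under these names in the deposited count table. Of 5 fibroblast markers 2 were tested, of 3 epithelial markers 2, and of 3 blood markers 0. The summed epithelial markers, mainly EPCAM, stood at 62.8 and 234 CPM in wild type and ranged from 111 to 187 CPM in the variant. Wild-type 1 was the lowest of the 5 libraries in the HEK293 sum (621 CPM) and in the epithelial sum (62.8 CPM). The fibroblast markers ranged from 30.7 to 48.2 CPM and from 30.6 to 47.6 CPM. The part of such differences in the results below was not tested.

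The first question was whether the 3 complexes differed between the genotypes. Most members were lower in the variant: 43 of 49 had a negative log2 fold change, against 49.5% of all tested genes. The median log2 fold change was −0.31 over the members and 0.00 over all 16310 tested genes. With edgeR's quasi-likelihood test, 0 of 49 members had a p under 0.05 once adjusted over all genes (0.0% of all genes), the smallest being 0.616. DESeq2 likewise gave 0 members (0.217% of all genes). At an unadjusted p under 0.05 there were 20 members, all lower in the variant, where 7.62% of all tested genes passed, 3.51% lower and 4.11% higher; DESeq2 gave 18 (7.4% of all genes in either direction). Among the 20, 15 were subunits, 2 were assembly factors, and the others were CYCS, COX7A2L and ATP5IF1. All 3 variant libraries lay below both wild-type libraries for 24 members (13.0% of all tested genes) and above both for 2, CYC1 and ATP5F1D (11.8%; 24.8% in either direction).

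The count rested on the library wild-type 1. Without it, 0 of 49 members had an unadjusted p under 0.05 by edgeR (3.34% of all genes, 1.19% lower) and the median was −0.20, with the remaining wild-type library assumed to vary like the variant libraries. It was 12 without variant 1, 11 of them lower (7.65% of all genes, 2.82% lower), 12 without variant 2, all lower (4.73%, 2.12% lower), and 20 without wild-type 2, 19 of them lower (8.73%, 5.18% lower). Each library was also adjusted for the GC content and length of transcripts, called the GC and length correction below. This left 8 members at that threshold, all lower (6.21% of all genes, 2.47% lower). The signs moved less than the count. With a library left out, 40 to 45 of 49 members had a negative log2 fold change, and 42 without wild-type 1.

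**Figure D1:**
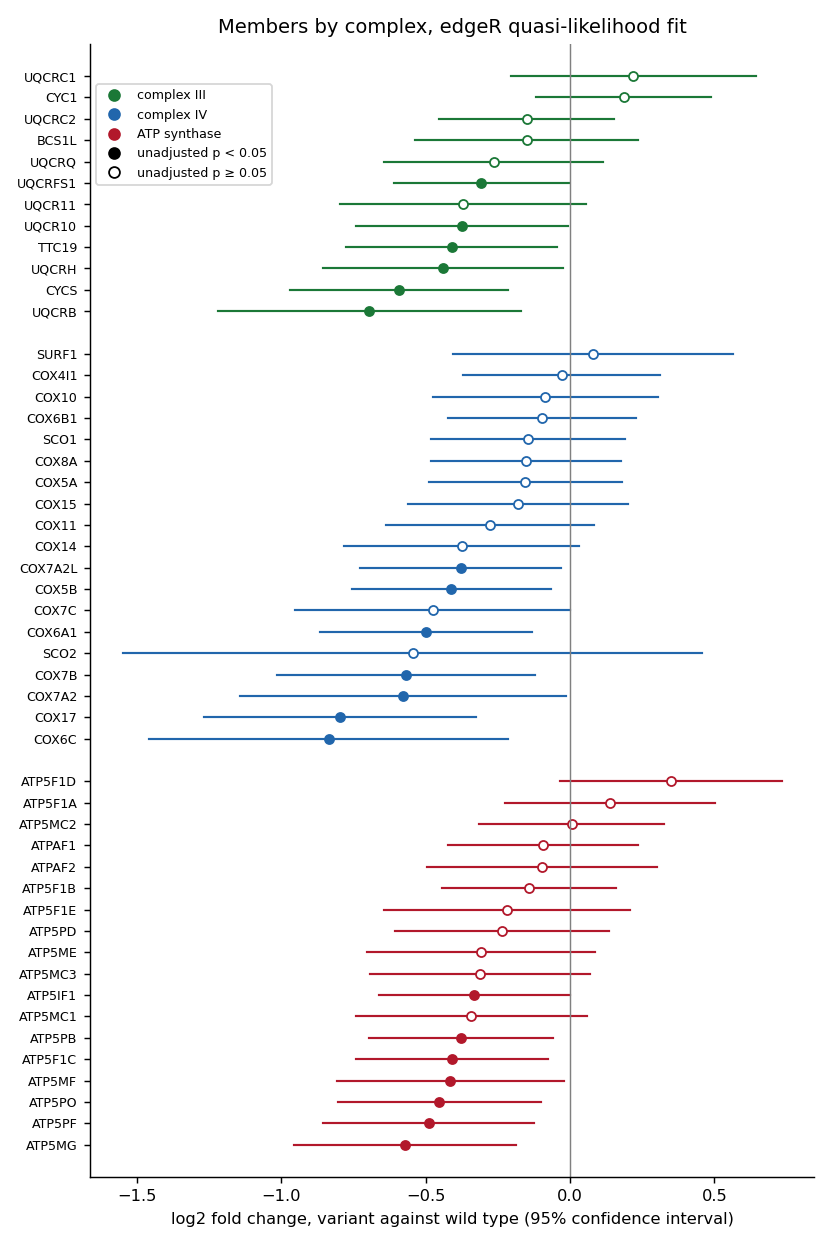
The log2 fold change of each member, variant against wild type, is plotted by complex with its 95% confidence interval; filled points have an unadjusted p under 0.05. The filled points, 6 in complex III, 7 in complex IV and 7 in ATP synthase, all lie left of 0, and the highest points are UQCRC1, SURF1 and ATP5F1D.

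The members varied between libraries of the same genotype. The median deviation of the members from the mean of the 5 libraries, on the log2 CPM scale, was 0.31 and 0.08 in the wild-type libraries (1 and 2) and −0.23, −0.10 and −0.04 in the variant libraries (1 to 3). Wild-type 1 was the highest library for 35 members and variant 1 the lowest for 28. Wild-type 2 thus lay nearer to variant 3 than to wild-type 1.

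The 3 complexes kept the same order of libraries at their extremes. The median deviation in wild-type 1 was 0.30 for complex III, 0.33 for complex IV and 0.28 for ATP synthase. In wild-type 2 it was 0.04, 0.12 and 0.09. In variant 1 it was −0.22, −0.25 and −0.19. All 3 complexes were thus highest in wild-type 1 and lowest in variant 1. Variant 2 stood at −0.06, −0.12 and −0.13, and variant 3 at −0.09, −0.01 and −0.03. Between any 2 complexes the medians of a library differed by at most 0.08, less than the pooled spread of the medians between libraries of a group, which was 0.13 for complex III, 0.13 for complex IV and 0.10 for ATP synthase.

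**Figure D2:**
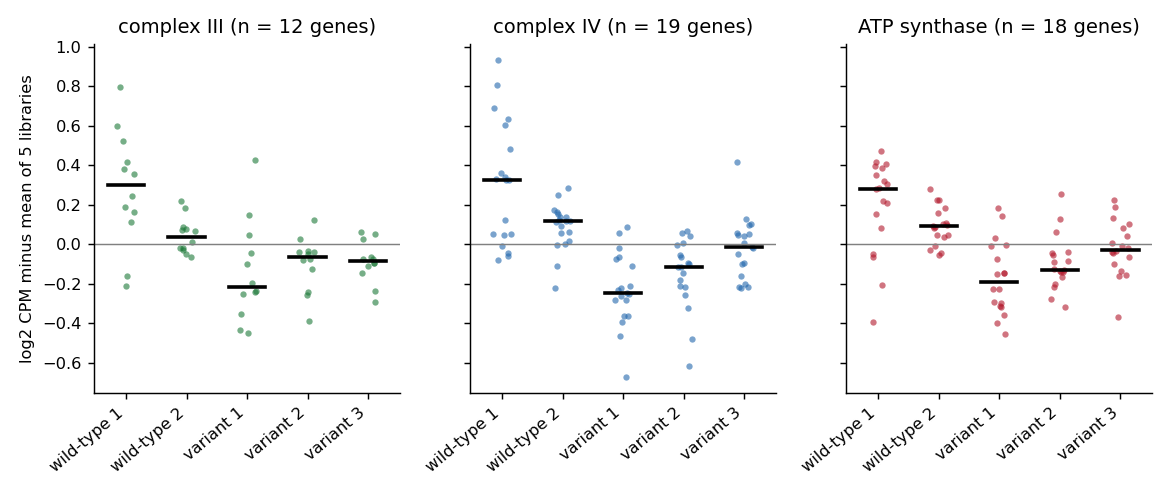
Each point is a member's log2 CPM minus its mean over the 5 libraries, by complex, and the bar is the median. Wild-type 1 has the highest median in each panel (0.30, 0.33 and 0.28) and variant 1 the lowest (−0.22, −0.25 and −0.19).

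Summed over its members, complex III held 2187 and 1866 CPM in wild type and 1704, 1720 and 1706 CPM in the variant. Complex IV held 3037 and 2710 CPM in wild type and 2159, 2476 and 2537 CPM in the variant. ATP synthase held 4325 and 4443 CPM in wild type and 3901, 3835 and 4133 CPM in the variant. The groups did not overlap in any of the 3 sums. Wild-type 2 was the higher of the wild-type libraries for ATP synthase, unlike for the others; its largest terms are ATP5F1A and ATP5F1B, both higher in wild-type 2 than in wild-type 1.

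In complex III, 7 of 9 subunits had a negative log2 fold change, the exceptions being CYC1 and UQCRC1. At an unadjusted p under 0.05 there were 4 of 9, all lower, where 3.51% of all tested genes were lower. UQCRB, a small subunit that binds near ubiquinone, had the lowest log2 fold change of the complex. It stood at 156 and 88.7 CPM in wild type and 65.8, 75.2 and 86.0 CPM in the variant. The log2 fold change was −0.69 (SE 0.23; −0.23 without wild-type 1), for which edgeR gave 0.0147 as unadjusted and 0.616 as adjusted p. The groups did not overlap, but wild-type 2 and variant 3 were close. UQCRH, the hinge protein at the docking site of cytochrome c, stood at 270 and 184 CPM in wild type and at 147, 178 and 178 CPM in the variant (log2 fold change −0.44, SE 0.18; −0.14 without wild-type 1). Here too wild-type 1 stood well above the other 4 libraries.

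The Rieske iron-sulfur protein UQCRFS1 showed another pattern of spread. Its wild-type libraries were alike, at 259 and 259 CPM, and its variant libraries stood at 193, 221 and 213 CPM, with −0.31 (SE 0.14) as log2 fold change, for which edgeR gave 0.0484 as unadjusted p. UQCR10, another small subunit, stood at 137 and 135 CPM in wild type and at 108, 88.7 and 118 CPM in the variant, a log2 fold change of −0.37 (SE 0.16). For UQCRFS1 and UQCR10 the gap between the groups was wider than the gap within wild type. At UQCR10 the variant libraries, from 88.7 to 118 CPM, spread more widely than the gap between the groups. UQCR11, also small, had −0.37 (SE 0.19) without passing the unadjusted threshold, UQCRQ had −0.26 (SE 0.17) and the core protein UQCRC2 −0.15 (SE 0.13). Without wild-type 1 these were −0.21, −0.048 and −0.071.

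CYC1, the subunit that carries heme c1, stood at 168 and 180 CPM in wild type and at 194, 205 and 195 CPM in the variant. All variant libraries were higher than both wild-type libraries, yet the log2 fold change of 0.19 (SE 0.13) had an unadjusted p of 0.198 in edgeR's test. UQCRC1 stood at 186 and 211 CPM in wild type and at 290, 209 and 194 CPM in the variant, so that variant 1 set its log2 fold change of 0.22 (SE 0.19). Without variant 1, it was 0.02.

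CYCS, cytochrome c itself, the mobile carrier between complexes III and IV and a trigger of apoptosis when released, had 278 and 195 CPM in wild type and 160, 155 and 155 CPM in the variant. The variant libraries were nearly equal, at 157 ± 2.86 CPM (SD, n = 3), while the wild-type libraries spread widely, at 236 ± 58.8 CPM (SD, n = 2). Cytochrome c had a log2 fold change of −0.59 (SE 0.17), for which edgeR gave 0.00607 as unadjusted and 0.616 as adjusted p. Leaving out wild-type 1 gave −0.31, and −0.35 was found with the GC and length correction. GENCODE release 29, on GRCh38, places CYCS on chromosome 7, from 25120091 to 25125361, on the reverse strand.

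The complex III assembly factors are TTC19 and BCS1L. TTC19, which helps clear fragments of the Rieske protein, stood at 122 and 95.2 CPM in wild type and at 77.0, 83.5 and 84.3 CPM in the variant, a log2 fold change of −0.41 (SE 0.16; −0.22 without wild-type 1). BCS1L, which moves the Rieske protein across the inner membrane, stood at 84.3 and 82.2 CPM in wild type and at 86.4, 75.1 and 63.5 CPM in the variant, and its groups overlapped.

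Complex IV had 7 members at an unadjusted p under 0.05, all lower, where 3.51% of all tested genes were lower. Of its 10 subunits, 10 had a negative log2 fold change. COX6C, a small membrane subunit, had the lowest log2 fold change of all 49 members, −0.84 (SE 0.28; −0.31 without wild-type 1). It stood at 176 and 93.4 CPM in wild type and at 57.9, 73.8 and 95.1 CPM in the variant, so wild-type 2 lay below variant 3 and the groups overlapped. COX7A2, likewise small, had a log2 fold change of −0.58 (SE 0.25) and stood at 258 CPM in wild-type 1. The other 4 libraries lay between 123 and 136 CPM, and without wild-type 1 its log2 fold change was 0.03.

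COX6A1, a subunit near the dimer interface, had wild-type libraries close together. It stood at 131 and 127 CPM in wild type and at 79.5, 89.8 and 105 CPM in the variant. The log2 fold change was −0.50 (SE 0.16), for which edgeR gave 0.0129 as unadjusted p, and −0.48 without wild-type 1. COX5B, which binds zinc, stood at 181 and 159 CPM in wild type and at 118, 144 and 123 CPM in the variant (log2 fold change −0.41, SE 0.15). COX7B stood at 168 and 115 CPM in wild type and at 79.9, 99.7 and 107 CPM in the variant (−0.57, SE 0.20; −0.27 without wild-type 1). Both had groups that did not overlap.

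The most abundant complex IV subunits had the log2 fold changes nearest to 0. Per kilobase of transcript, COX6B1 was the most abundant member of the 49, at 832 CPM per kilobase, and COX4I1 held 521 CPM per kilobase. COX4I1, the regulatory subunit that binds ATP, stood at 390 and 447 CPM in wild type and at 353, 428 and 449 CPM in the variant. Its log2 fold change was −0.03 (95% confidence interval −0.37 to 0.31), and that of COX6B1 was −0.10 (−0.42 to 0.23), with 456 and 526 CPM in wild type and 406, 484 and 489 CPM in the variant. COX5A and COX8A had −0.16 and −0.15. COX7C, at −0.48, just missed the unadjusted threshold with a p of 0.0501 by edgeR; it was −0.056 without wild-type 1 and −0.17 with the GC and length correction. The intervals of COX4I1 and COX6B1 leave room for differences in either direction.

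COX7A2L, which ties complexes III and IV into supercomplexes, stood at 88.0 and 76.1 CPM in wild type and at 64.7, 64.5 and 59.9 CPM in the variant. The log2 fold change was −0.38 (SE 0.16), for which edgeR gave 0.0359 as unadjusted p, and the groups did not overlap. With the GC and length correction it was −0.16, with an unadjusted p of 0.255 by edgeR.

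Among complex IV assembly factors, 7 of 8 had a negative log2 fold change (49.5% of all tested genes). At an unadjusted p under 0.05 there was 1, lower in the variant (3.51% of all tested genes). That was COX17, the chaperone that hands copper to SCO1 and COX11. It stood at 39.3 and 28.97 CPM in wild type and at 18.9, 17.4 and 22.7 CPM in the variant, or 34.2 ± 7.33 CPM (SD, n = 2) and 19.7 ± 2.74 CPM (SD, n = 3). The log2 fold change was −0.80 (SE 0.21), with the smallest unadjusted p of the members, 0.00389 by edgeR (adjusted 0.616). For COX17 it was −0.56 without wild-type 1 and −0.59 with the GC and length correction. COX17 lies on chromosome 3, from 119654513 to 119677454, on the reverse strand, and 17.6% of its annotated exon bases are shared with POPDC2 on the same strand.

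Among its partners in copper delivery, SCO1 had a log2 fold change of −0.14 (SE 0.15) and COX11 −0.28 (SE 0.16; −0.10 without wild-type 1). SCO2 stood at 17 and 13 counts in wild type and at 11, 7 and 13 counts in the variant, with a log2 fold change of −0.55 (SE 0.45; −0.32 without wild-type 1). At 0.68 CPM per kilobase it was the least abundant member; 100% of its annotated exon bases are shared with other records on the same strand, TYMP among them, and the part of this overlap in its low count was not tested. COX10 and COX15, which make heme a, had −0.09 (SE 0.17) and −0.18 (SE 0.17). COX14, which acts early in the assembly of the core subunit, had −0.38 (SE 0.18; −0.23 without wild-type 1). SURF1 stood at 48.3 and 50.2 CPM in wild type and at 41.9, 47.1 and 67.2 CPM in the variant, and its log2 fold change of 0.08 (SE 0.22) was −0.15 without variant 3.

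**Figure D3:**
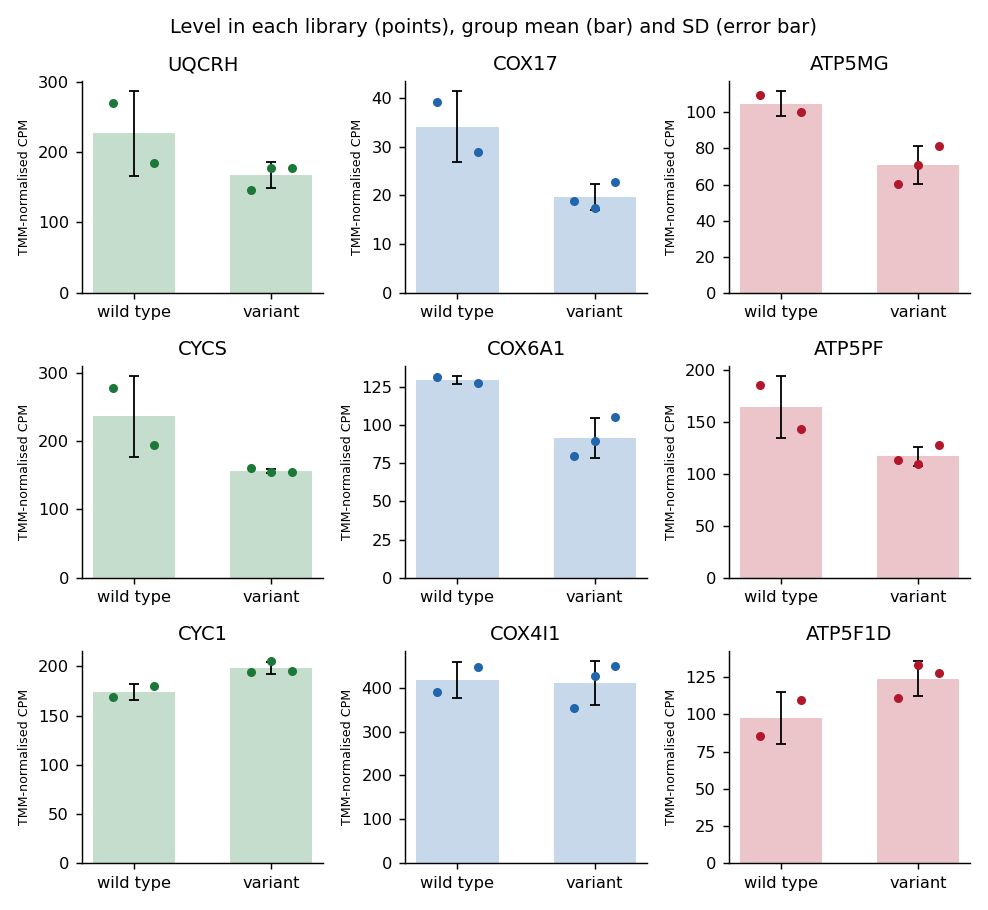
TMM-normalised CPM of 9 members is plotted for 2 wild-type and 3 variant libraries (points), with group means (bars) and SD (error bars). COX17, COX6A1 and ATP5MG have variant points below both wild-type points, CYC1 and ATP5F1D have variant points above both, and COX4I1 overlaps.

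In ATP synthase 15 of 18 members had a negative log2 fold change, and the exceptions were ATP5F1A, ATP5F1D and ATP5MC2. The median log2 fold change was −0.42 for the 4 stalk subunits, −0.33 for the 6 Fo subunits and −0.14 for the 5 F1 subunits. The difference between these parts was not tested. At an unadjusted p under 0.05 there were 3 of 4 stalk subunits, 2 of 6 Fo subunits and 1 of 5 F1 subunits. All were lower in the variant, where 3.51% of all tested genes were lower at that threshold.

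The catalytic subunits ATP5F1A and ATP5F1B are the alpha and beta subunits that form the hexamer of the head. ATP5F1A stood at 768 and 915 CPM in wild type and at 978, 769 and 1033 CPM in the variant (log2 fold change 0.14, SE 0.16; 0.018 without wild-type 1). ATP5F1B stood at 1072 and 1309 CPM in wild type and at 1063, 1085 and 1089 CPM in the variant (−0.14, SE 0.13). The groups overlapped at both.

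The central shaft is made of the gamma, delta and epsilon subunits. ATP5F1C, the gamma subunit that turns inside the head, stood at 235 and 226 CPM in wild type and at 151, 188 and 181 CPM in the variant, a log2 fold change of −0.41 (SE 0.15) for which edgeR gave 0.0208 as unadjusted p. ATP5F1D, the delta subunit at the foot of the shaft, stood at 85.2 and 109.8 CPM in wild type and at 111.3, 134 and 128 CPM in the variant. It had the highest log2 fold change of the 49, 0.35 (SE 0.17), with an unadjusted p of 0.0696, and 0.18 without wild-type 1. Its GC content of 69.0% was the highest of the members. ATP5F1E, epsilon, had −0.22 (SE 0.19; −0.017 without wild-type 1).

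The peripheral stalk holds the head still while the shaft turns. ATP5PF (coupling factor 6) stood at 185 and 143 CPM in wild type and at 114, 110 and 127 CPM in the variant, a log2 fold change of −0.49 (SE 0.16; −0.29 without wild-type 1). ATP5PO, the subunit that grips the top of the head, stood at 110 and 94.4 CPM in wild type and at 69.1, 79.3 and 75.9 CPM in the variant, a log2 fold change of −0.45 (SE 0.16). ATP5PB, the long b subunit, stood at 212 and 178 CPM in wild type and at 150, 151 and 149 CPM in the variant, with a log2 fold change of −0.38 (SE 0.14; −0.25 without wild-type 1). The groups did not overlap at any of the 3, where 13.0% of all tested genes had all variant libraries below both wild-type libraries. At the last stalk subunit, ATP5PD, the log2 fold change was −0.24 (SE 0.17) and the groups overlapped.

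Within Fo, ATP5MG, a subunit at the dimer interface, had the lowest log2 fold change of ATP synthase. It stood at 110 and 100.1 CPM in wild type and at 60.05, 70.8 and 81.2 CPM in the variant. The groups of ATP5MG did not overlap, but its variant libraries spread more widely than the gap between the groups. Its log2 fold change was −0.57 (SE 0.17), for which edgeR gave 0.00823 as unadjusted and 0.616 as adjusted p, and −0.50 without wild-type 1. ATP5MF stood at 170 and 139 CPM in wild type and at 97.8, 117 and 133 CPM in the variant (−0.41, SE 0.17; −0.26 without wild-type 1). The small subunit ATP5ME had −0.31 (SE 0.18).

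Subunit c forms the rotor ring of Fo, and the genes ATP5MC1, ATP5MC2 and ATP5MC3 encode the same mature protein with different import presequences. ATP5MC1 stood at 143 and 107 CPM in wild type and at 86.5, 102 and 108 CPM in the variant (log2 fold change −0.34, SE 0.18; −0.12 without wild-type 1). ATP5MC2 stood at 217 and 232 CPM in wild type and at 224, 206 and 246 CPM in the variant (0.01, 95% confidence interval −0.31 to 0.32). ATP5MC3 stood at 347 and 297 CPM in wild type and at 254, 307 and 218 CPM in the variant (−0.31, SE 0.17; −0.20 without wild-type 1). None of the 3 passed the unadjusted threshold, and the groups overlapped at each. Per kilobase of transcript, ATP5MC3 held 338 CPM, ATP5MC2 277 CPM and ATP5MC1 203 CPM.

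ATP5IF1, the inhibitor that stops ATP synthase from running backwards, stood at 166 and 162 CPM in wild type and at 116, 137 and 138 CPM in the variant. The groups did not overlap, and the log2 fold change was −0.33 (SE 0.15) for which edgeR gave 0.0497 as unadjusted p. The assembly factors ATPAF1 and ATPAF2, which chaperone the beta and alpha subunits, had −0.09 (SE 0.15; 0.0080 without wild-type 1) and −0.10 (SE 0.18), and their groups overlapped.

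By role, 29 of the 34 subunits and 11 of the 12 assembly factors had a negative log2 fold change, with medians of −0.33 and −0.16. In wild-type 1 the median deviation of the subunits lay 0.18 above that of the assembly factors, and in variant 1 it lay 0.17 below (−0.17). In the other 3 libraries the 2 roles were within 0.05 of each other. With the GC and length correction the medians were −0.20 and −0.16. Per kilobase of transcript, assembly factors held 0.68 to 91.9 CPM and subunits 65.9 to 832 CPM.

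Log2 fold changes varied with the GC content of the transcript, among the members and among all genes. Of the 26 members under 50% GC, 15 had an unadjusted p under 0.05, all lower, where 5.85% of all genes under 50% GC were lower at that threshold. Of the 23 members at 50% GC or more, 5 were lower, where 1.09% of all such genes were. The median log2 fold change was −0.38 in the low-GC members and −0.16 in the high-GC members, and it was −0.09 and 0.09 over all genes of those classes. Across the 49 members, which share libraries and are not independent, Spearman's rho of GC content with the log2 fold change was 0.52, and it was 0.28 with the GC and length correction. Across all 16180 tested genes with known values it was 0.34 and, after the correction, 0.01.

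The correction lowered the count in every complex but left most signs in place. After it, 41 of 49 members had a negative log2 fold change, with medians of −0.24 for complex III, −0.17 for complex IV and −0.17 for ATP synthase. The 8 members that then passed 0.05 unadjusted by edgeR were CYCS, TTC19, COX6A1, COX6C, COX17, ATP5PB, ATP5PO and ATP5MG. All 8 were also among the 20 of the uncorrected fit, and the smallest adjusted p was 0.780.

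**Figure D4:**
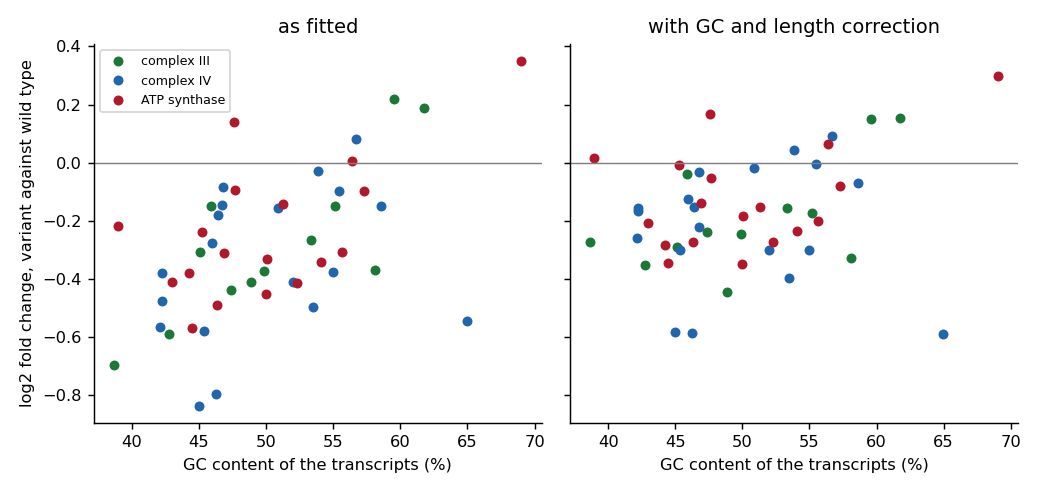
The log2 fold change of each member is plotted against the GC content of its transcripts, as fitted (left) and with the GC and length correction (right), coloured by complex. The upward slope on the left (rho 0.52) is shallower on the right (rho 0.28), and most points stay below 0 in both panels.

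The core subunits made from mitochondrial DNA differed from their nuclear partners in the lowest library, and less in the highest. Wild-type 1 was the highest library for 4 of the 6 mitochondrial transcripts and for 35 of the 49 nuclear members. Variant 3 was the lowest library for all 6 of these transcripts, while variant 1 was the lowest for 28 of the 49 nuclear members. MT-ATP6, the Fo subunit beside the rotor, stood at 3735 and 3300 CPM in wild type and at 2823, 2804 and 2364 CPM in the variant, for −0.40 (SE 0.14) as log2 fold change, with 0.0149 as edgeR's unadjusted p. MT-CO2 and MT-CO3, core subunits of complex IV, had −0.30 (SE 0.14) and −0.23 (SE 0.14). The catalytic MT-CO1 had −0.10 (SE 0.15), MT-CYB of complex III −0.02 (SE 0.15) and MT-ATP8 −0.23 (SE 0.20). Their median was −0.23, and −0.03 with the GC and length correction.

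Beyond the members, 43 further genes of the 3 complexes were listed and 38 were tested. The median log2 fold change was −0.23, with 28 of 38 lower. At an unadjusted p under 0.05, 7 were lower and 1 was higher (3.51% and 4.11% of all tested genes), and none had an adjusted p under 0.05. With the GC and length correction the median was −0.12, with 26 of 38 lower. At that threshold 4 were then lower (2.47% of all genes) and 1 was higher. Wild-type 1 was the highest library for 19 of the 38. HIGD1A, a factor that binds complex IV under low oxygen, had −0.85 (SE 0.27), with 47.0 and 26.5 CPM in wild type and 24.97, 18.7 and 17.5 CPM in the variant. ATP5MK, a small subunit of ATP synthase, had −0.64 (SE 0.20), with 58.6 and 40.9 CPM in wild type and 29.1, 33.2 and 33.5 CPM in the variant. NDUFA4, a subunit of complex IV despite its name, had −0.59 (SE 0.19), with 251 and 169 CPM in wild type and 120.0, 149 and 151 CPM in the variant. The groups did not overlap at ATP5MK and NDUFA4 or at HIGD1A, but wild-type 2 and variant 1 were close at HIGD1A. The copper-related COA6 and the factors COA5 and CMC2 of complex IV had −0.51, −0.45 and −0.51, and UQCC6 of complex III had −0.52. The higher gene was COX6B2, an isoform known from testis, at 1.26 (SE 0.54) and at most 1.19 CPM in any library.

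Complex I and complex II showed values of the same sign. Among 37 complex I subunits the median was −0.18, with 34 lower and 10 at an unadjusted p under 0.05, all lower (3.51% of all tested genes were lower at that threshold). The 8 complex II genes had −0.12, with 6 lower and 2 at that threshold, both lower. With the GC and length correction the complex I median was −0.14, with 3 lower at that threshold, and the complex II median was −0.05, with 4 of 8 lower. Complexes III, IV and ATP synthase had −0.34, −0.38 and −0.31 without the correction, and −0.24, −0.17 and −0.17 with it. Differences between these lists were not tested.

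Promoters of respiratory genes often hold sites for the nuclear respiratory factor NRF1, for ETS factors such as GABP, for YY1 and for estrogen-related receptors (ERR). Windows of 300 bases, from 250 before to 50 after each RefSeq start on GRCh38.p14, were matched by symbol for 40 of 49 members and searched on both strands. A gene with several starts was counted if any window held the letters. The ETS letters CCGGAAG were in 18 of 40 member promoters (45.0%) and in 12.2% of the 27305 genes with RefSeq windows. Those genes were not limited to the genes tested here or matched to the members. The NRF1 letters (GCGCA, any base, then GCGC) were in 8 (20%, against 6.98%), the YY1 letters AAGATGGC in 6 (15%, against 3.52%) and the ERR letters AAGGTCA in 4 (10%, against 4.80%). CCAAT was in 20 (50%, against 39.7%). None of these letter strings lies within another.

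The mix differed in count between the complexes. ETS letters were in 10 of 16 complex IV promoters, 3 of 10 of complex III and 5 of 14 of ATP synthase. NRF1 letters were in 1 of 16, 4 of 10 and 3 of 14. Among the 17 matched members that were lower at an unadjusted p under 0.05, 5 held NRF1 letters and 6 held ETS letters. Among the other 23 these were 3 and 12. The letters are a description of these windows, and no factor was measured at them.

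A stretch of 150 bases before the RefSeq start is shown for 1 member of each complex, to let the letters be seen in place. Each stretch is free of exons of the basic transcript set of GENCODE release 29. In the full set the COX17 gene reaches to 119677454, which lies inside its stretch. The member shown is lower in the variant, and its stretch held an NRF1, ETS, YY1 or ERR match. Among members of its complex whose exon-free stretch held such a match, it has the smallest p. Other members held a match in their whole window and had a smaller unadjusted p by edgeR, but are not shown. These were UQCRH, UQCRFS1 and UQCR10 in complex III, and ATP5MG, ATP5PF, ATP5PO, ATP5F1C, ATP5PB and ATP5ME in ATP synthase. By edgeR the unadjusted p was 0.00389 for COX17, 0.0813 for UQCR11 and 0.183 for ATP5PD. UQCR11 and ATP5PD did not pass the unadjusted threshold. Capitals mark the matches, and each stretch is given 5′ to 3′ on the gene's strand, which is the reverse strand of GRCh38.p14 in all 3. COX17 has a pair of NRF1 matches that begin 116 and 62 bases before the start. UQCR11 has a pair of ETS matches, the first of them beginning 117 bases before the start and the next at 97. ATP5PD has an ETS match that begins 101 bases before the start.
COX17, chr3:119677407-119677556: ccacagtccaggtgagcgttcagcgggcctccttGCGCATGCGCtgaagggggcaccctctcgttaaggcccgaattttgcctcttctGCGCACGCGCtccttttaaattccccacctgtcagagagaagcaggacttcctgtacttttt
UQCR11, chr19:1605491-1605640: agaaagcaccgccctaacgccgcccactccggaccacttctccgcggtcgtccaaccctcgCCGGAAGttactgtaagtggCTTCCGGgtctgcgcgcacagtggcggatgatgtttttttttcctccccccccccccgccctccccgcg
ATP5PD, chr17:75046986-75047135: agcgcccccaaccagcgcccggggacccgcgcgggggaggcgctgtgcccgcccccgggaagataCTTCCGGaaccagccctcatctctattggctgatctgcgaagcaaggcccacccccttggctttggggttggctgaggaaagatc

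Many members have processed pseudogenes, copies of their mRNA elsewhere in the genome, with which short reads can be shared. GENCODE release 29 names 136 such pseudogenes for 27 members, and 19 of them had rows in the count table. With UQCRHL, annotated as protein-coding, counted for UQCRH, 13 members had a copy with a row. The fullest row was COX6A1P2, with 330 and 304 counts in wild type and 260, 354 and 345 counts in the variant. Its groups overlapped, unlike those of COX6A1. UQCRHL, a near copy of UQCRH, held 382 and 271 counts in wild type and 215, 232 and 271 counts in the variant. Levels of such members are uncertain to the extent that reads were split or dropped between copies, which was not tested.

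**Figure D5:**
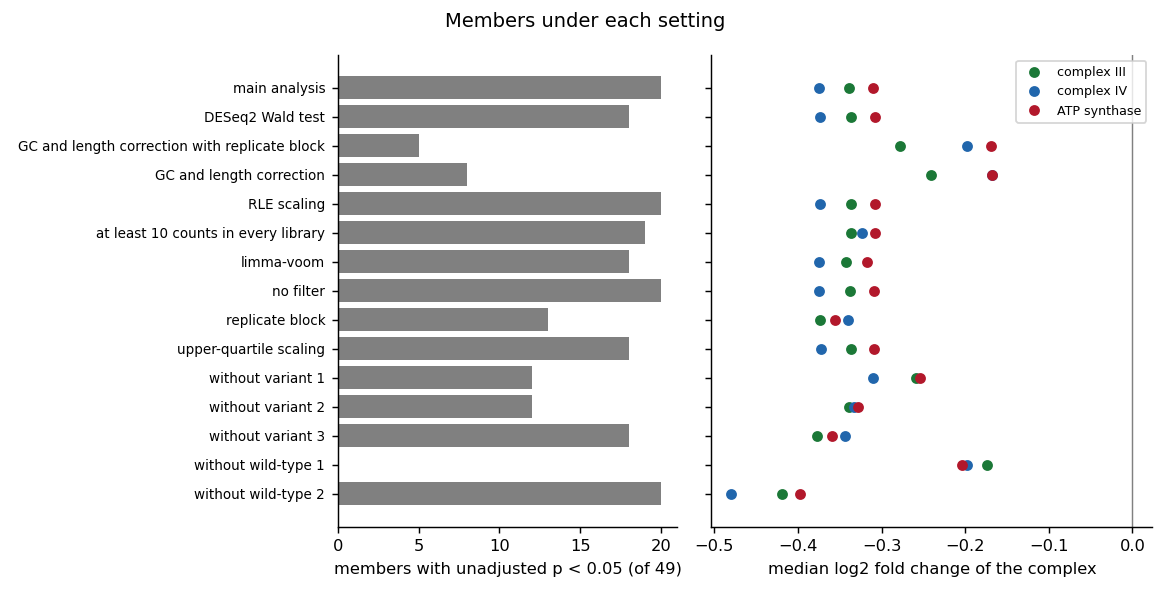
For the main analysis and each alternative, the left panel counts members with an unadjusted p under 0.05 and the right panel gives the median log2 fold change of each complex. The count is 20 in the main analysis and 0 without wild-type 1, and each median stays below 0.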

How the data were processed

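The authors deposited raw counts of reads per gene, with no normalization; the submitters' processing notes name HISAT2, SAMtools, HTSeq and hg38, and no annotation. Per the labels' protocols, RNA was taken with TRIzol and strand-specific mRNA libraries were read as single ends of 50 bases. No gene had fewer than 3 counts in any library. Genes were named and placed with the gene name table and GENCODE release 29, whose protein-coding transcripts gave a median length and mean GC content per gene. All 16310 genes kept by filterByExpr were fitted together with edgeR 4.0.16 (R 4.3.3), with TMM scaling, a quasi-likelihood F test with robust dispersions and group as the sole term. P-values are two-sided, with Benjamini-Hochberg adjustment over all genes and a threshold of 0.05. Alternatives were RLE and upper-quartile scaling, no filter, at least 10 counts in every library, DESeq2 1.42.0, limma-voom (limma 3.58.1), the replicate number as a block, each library left out, and a spline correction (5 degrees of freedom) on GC content and length. The fits were also run on simulated data, and the outcome is not given here. The lack of adjusted calls does not show that the members were unchanged. Values in every library were given for members at an unadjusted p under 0.05, for the highest and lowest in each complex, for the most abundant and for members with a set role. Members and lists were chosen with earlier results of these data known. The lowest counts among the members were those of SCO2, 7 to 17.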

Additional observations from a re-analysis of the deposited data

How the results depend on the processing

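No member had an adjusted p under 0.05 in any fit, DESeq2 included; of all genes, DESeq2 gave 32 and edgeR 0, or 4 without variant 3, 1 without wild-type 1 and 2 with the GC and length correction and the replicate block. Of 98 values of the main results under alternatives, 84 were counted as kept and 14 as moved. The kept values include the 0 adjusted calls of each fit. A kept value could still shift: the median of all members was −0.312 in the main analysis and −0.198 without wild-type 1. The count of 20 members at an unadjusted p under 0.05 became 13 with the replicate block. It was 8 with the GC and length correction (6.21% of all genes) and 5 with both. For the fits with the block the share of all genes was not computed, so 13 and 5 have no background beside them. With a library left out, the count fell furthest without wild-type 1. With the GC and length correction the median log2 fold change was −0.183 for all members, −0.167 for complex IV and −0.168 for ATP synthase, and with the block added −0.198 and −0.169 for the last 2. With a library left out it ran from −0.420 to −0.198 for all members, from −0.419 to −0.174 for complex III, from −0.480 to −0.198 for complex IV and from −0.397 to −0.204 for ATP synthase. Deviations from the group mean correlated at 0.12 and −0.11 between libraries of equal replicate number. With 2 wild-type libraries their deviations mirror each other, so these correlations cannot decide whether the libraries were paired.

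Of 32 members followed through the fits, 6 changed sign in at least 1. COX4I1 had 0.044 with the correction and 0.021 with correction and block, and −0.13 to 0.074 with a library left out. COX6B1 had 0.0085 with correction and block, and −0.20 to 0.011 with a library left out. In those fits COX7A2 ran from −1.003 to 0.026, ATP5F1B from −0.28 to 0.0092, SURF1 from −0.15 to 0.21 and ATP5MC2 from −0.063 to 0.067. SURF1 had −0.15 with the block and −0.070 with correction and block, and ATP5MC2 had −0.064 with the block. The cause was not tested.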
